A study of Homo sapiens with 6 samples.

Results

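The dystrophin glycoprotein complex was examined through 8 genes (DMD, UTRN, DAG1, SGCA, SGCB, SGCD, DTNA and DYSF) in rhabdomyosarcoma cells that had received a precursor of the microRNA miR-27a. All array probes that carry one of these gene names were taken, which gave 19 of 41000 probes and 8 of 30484 gene names. RH36, a cell line from an embryonal rhabdomyosarcoma (a tumour of skeletal muscle lineage) without the PAX3/FOXO1 translocation, was transfected with pre-miR-27a (n = 3 arrays, labelled as collected at 48 h) or with a negative pre-control molecule (n = 3 arrays). The labels give a dose of 10 nM, and the study's methods state another dose and time. Total RNA of each biological replicate was labelled with Cy3 and hybridised to 1 whole-genome Agilent array of 60-base probes. Every array comes from the same single cell line, and bulk RNA cannot tell fewer cells of a type from less RNA per cell.

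In skeletal muscle, dystrophin ties the actin cytoskeleton under the plasma membrane to a group of membrane proteins, and through dystroglycan to laminin in the matrix outside the fibre. Utrophin is a close relative of dystrophin that can occupy the same place, the sarcoglycans form a subcomplex that steadies dystroglycan, and dystrobrevin binds dystrophin from the cytoplasmic side. Dysferlin is not a structural part of the complex: it works in resealing of the torn membrane, and its loss, like that of dystrophin or a sarcoglycan, causes a muscular dystrophy.

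The microRNA that was delivered is shown with its closest relative, since both pair with messenger RNAs through the same seed. Capitals mark the seed, bases 2 to 8 of the mature strand, which 3 of the 2545 mature human microRNAs in the RefSeq table share.
hsa-miR-27a-3p: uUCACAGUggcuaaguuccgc
hsa-miR-27b-3p: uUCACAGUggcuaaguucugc
In the GRCh38.p14 assembly, miR-27a-3p lies at chr19:13836447-13836467 on the minus strand and miR-27b-3p at chr9:95085505-95085525 on the plus strand. No probe was taken to measure the mature strand, so delivery was not checked on these arrays, and sites for this seed in the members' transcripts were not searched.

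Yield and background both differed between the groups. Between 69.9% and 73.9% of the 43376 spots of each pre-control array stood well above background, against 74.1% to 78.0% on the pre-miR-27a arrays, and no spot was saturated. The pre-control arrays shared 1 slide and the pre-miR-27a arrays the other, so that slide and treatment cannot be told apart in any difference given here. The cell line label was checked on myogenic markers. MYOD1, MYOG, MYF6, DES, CDH15, CHRNA1 and CKM stood well above background on each of the 6 arrays, and MYF5 was on none. The log2 of the summed signal of these 8 myogenic markers ranged from 16.95 to 17.34 in pre-control cells and from 16.80 to 17.18 in pre-miR-27a cells. Of the markers of other cell types, 0 of 4 epithelial and 0 of 3 Schwann and neural genes were well above background on all 6 arrays. The same count was 1 of 3 for endothelial genes and 2 of 4 for blood genes, whose defining gene PTPRC was on none. The log2 of the summed signal of the blood list ran from 8.50 to 8.65 in pre-control and from 8.01 to 8.13 in pre-miR-27a cells. The part of these genes in the results was not tested.

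All 8 genes had at least 1 measured probe. Of the 19 probes, 16 stood well above background on each of the 6 arrays and 1, for DMD, on none. Values are log2 of the quantile-normalized signal, the change is the pre-miR-27a mean minus the pre-control mean, and a probe was called where limma's Benjamini-Hochberg adjusted p, taken over 36469 probes, was under 0.05. Of the 17 member probes that entered this test, 1 was called, a DMD probe that fell. Over the array 7.83% of probes were called, 3.95% higher and 3.88% lower. When each gene was read by its brightest probe, 0 of 8 members were called. Of all gene names read in that way 7.4% were called, 3.07% higher and 4.33% lower. At an unadjusted p under 0.05 there were 3 member probes of 17, beside 24.8% of all probes. The values of the groups did not overlap in 5 of the 17 member probes, where 32.5% of all probes did not. The member shares lie near these backgrounds. The median change was −0.16 over the 17 member probes and −0.022 over all probes, with 8 member probes above 0 and 9 below. Brightness differs between probes for reasons of their sequence, so no order of the genes by level is given.

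**Figure D1:**
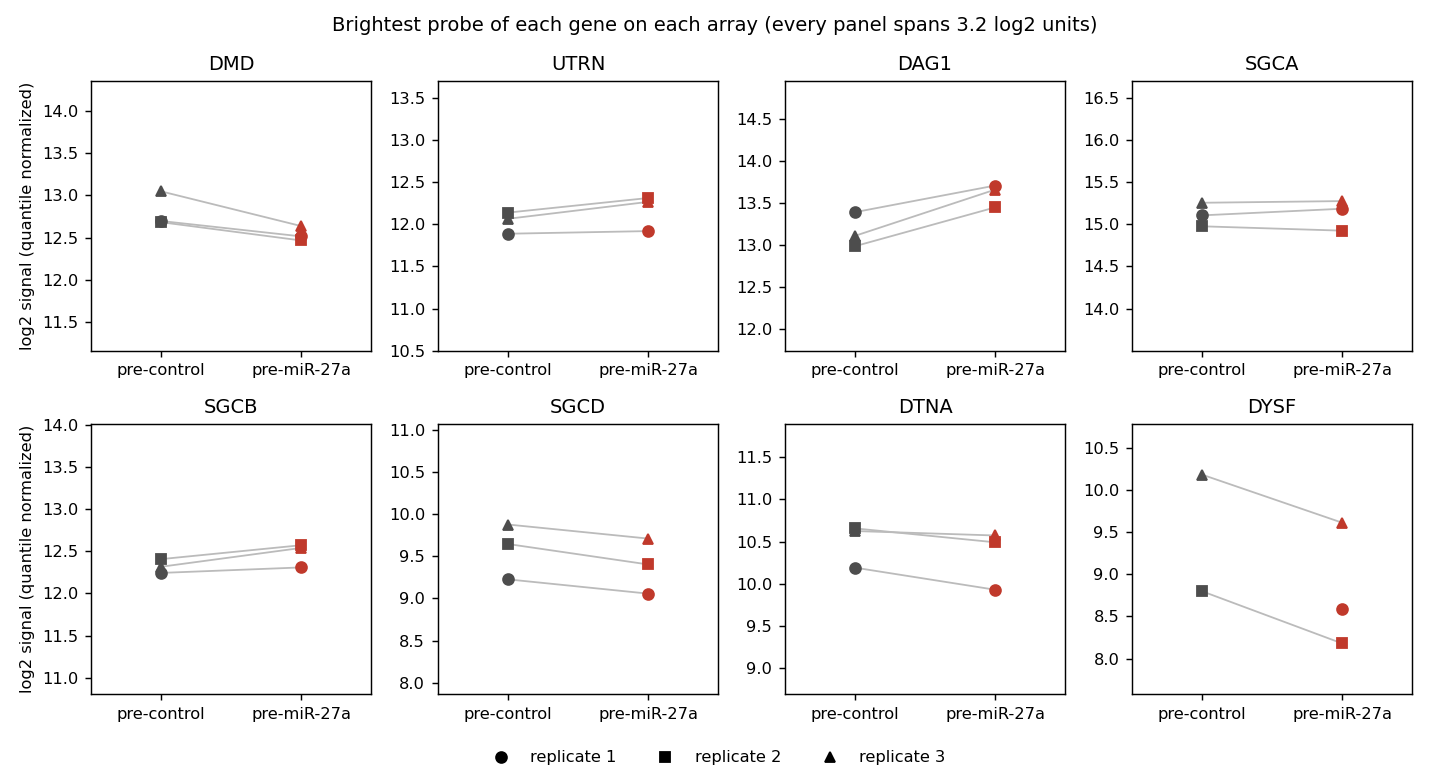
Log2 quantile-normalized signal (vertical axis) of the brightest probe of each of the 8 genes on each array, with pre-control in grey and pre-miR-27a in red; every panel spans the same number of log2 units, marker shapes give the replicate number, and lines join arrays of the same number. The brightest DAG1 probe was higher and the brightest DMD probe lower in all 3 pairs with the groups not overlapping, SGCA stayed level, and DYSF spread more by replicate than by treatment; its pre-control replicate 1 spot was not found and has no point.

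Dystrophin was covered by 5 probes along its long gene on chromosome X, of which 4 entered the test. DMD is known for several promoters, which yield full-length forms (Dp427) and shorter forms (Dp140 and Dp40 among them) that begin further along the gene. Forms can share sequence, so an annotation to a form does not show that a probe reads that form alone. The probe at the 3′ end (A_24_P185854, chrX:31047270-31047329 in hg18, minus strand, annotated to full-length transcripts such as NM_004010) read 12.70, 12.68 and 13.05 in pre-control replicates 1 to 3. In pre-miR-27a replicates 1 to 3 it read 12.51, 12.47 and 12.64. All 3 treated arrays were thus below all 3 controls, by a mean of −0.27 on the log2 scale (SE 0.13, adjusted p = 0.262, 95% interval −0.59 to 0.046), and the difference did not pass the test. Shorter forms may share this end of the gene, and which forms the probe read was not tested.

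The single called member probe is annotated to the short form Dp40 (A_24_P342388, NM_004019, with its ends at chrX:31151120-31189012 in hg18). Its signal was 7.18, 7.46 and 7.51 on the pre-control arrays and 6.61, 6.81 and 6.78 on the pre-miR-27a arrays. It was lower in each of the 3 pairs of same-numbered arrays, by −0.58, −0.65 and −0.74, so the drop was close to equal from pair to pair. The fall was −0.65 (SE 0.12, limma adjusted p = 0.0364, 95% interval −0.95 to −0.35), which left 0.636 of the pre-control signal. An exact permutation test of this probe gave p = 0.1, the smallest that 3 arrays against 3 allow. The call is not firm: with normexp background correction the change was −0.36 (adjusted p = 0.0543). With 1 array left out it stayed between −0.75 and −0.59, and it was called without pre-control replicate 1 (adjusted p = 0.0437) but not without any of the other 5 arrays (adjusted p from 0.0930 to 0.119).

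A second probe annotated to Dp40 (A_23_P321860, chrX:31106235-31106296) stood well above background on 0 of 6 arrays and was not tested, so the fall of the first rests on that probe alone. Its unfiltered log2 signal lay between 2.03 and 2.08 on all 6 arrays.

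The other two DMD probes, further toward the 5′ end, had changes of the opposite sign that did not pass the test. A_24_P34186 (chrX:32292733-32293101, annotated to full-length transcripts such as NM_004010 and NM_004006) read 6.34, 5.55 and 7.38 in pre-control and 6.96, 6.35 and 8.11 in pre-miR-27a cells. The groups overlapped because the replicates differed by more than the treatment did: the means of same-numbered arrays spanned 1.79. Its change was 0.72 (SE 0.62, adjusted p = 0.539), and with 1 array left out it lay between 0.23 (without pre-miR-27a replicate 3) and 1.20 (without pre-control replicate 3). It was 0.28 without pre-control replicate 2 and 1.11 without pre-miR-27a replicate 2. Within the pairs it was higher by 0.62, 0.80 and 0.73, and once the replicate number was fitted as a block this change had an SE of 0.063 and passed (adjusted p = 0.0334). The probe annotated to Dp140 (A_32_P199796, chrX:31586091-31586150, NM_004023) was dim, and well above background on 0 of 3 pre-control and 3 of 3 pre-miR-27a arrays. Its pre-control replicate 1 spot was not found and dropped out of the fit. The measured values were 4.13 and 3.51 against 4.05, 4.40 and 4.89, which overlap, and the change was 0.63 (SE 0.32, adjusted p = 0.317). The lowest signals that counted as well above background on the 3 control arrays were 4.63, 5.00 and 4.37. The treated mean of 4.45 lay below the mean of these, so a bound on the fold could not be set. On the 3 treated arrays the lowest such signals were 3.78, 3.61 and 4.18. The detection counts of the groups thus rest on unlike limits.

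The 4 tested DMD probes therefore gave changes from −0.65 to 0.72. Whether their changes differed was examined on each array as the difference between a pair of probes. Over all members there were 15 such pairs, of which 8 did not overlap between the groups. The lowest exact permutation p was 0.1, or 0.1875 after Benjamini-Hochberg adjustment over the pairs. The share of pairs without overlap was not taken over the array. The 3′ end probe minus the Dp40-annotated probe ran from 5.22 to 5.54 on the control arrays and from 5.65 to 5.91 on the treated arrays, without overlap. The change of the first exceeded that of the second by 0.38 (exact permutation p = 0.1). The 3′ end probe minus A_24_P34186 overlapped between the groups when the replicate number was left aside (exact permutation p = 0.2). Within the same-numbered pairs the change of the 3′ end probe minus that of A_24_P34186 was −0.81, −1.02 and −1.14, of the same sign in all 3.

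**Figure D2:**
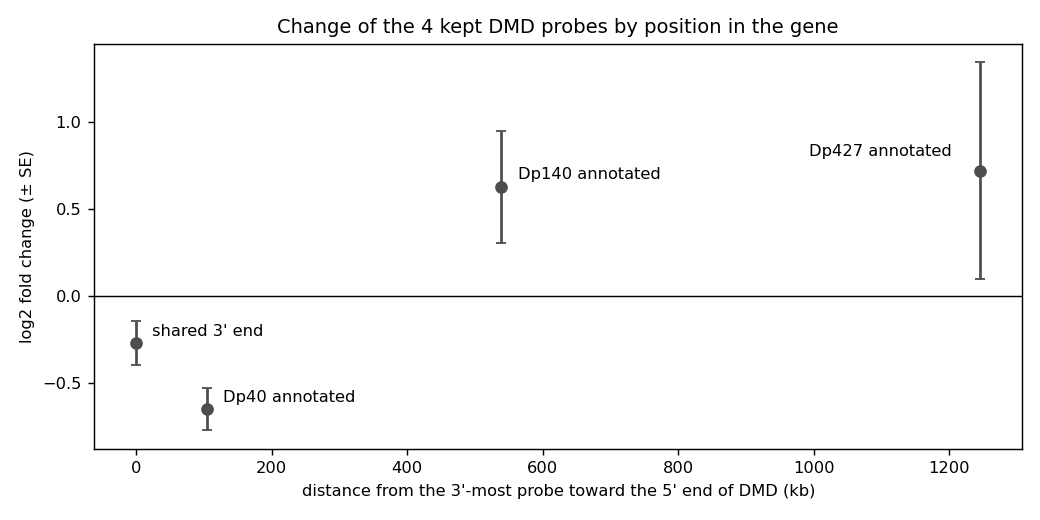
Log2 fold change, pre-miR-27a minus pre-control (vertical axis, bars are standard errors), of the 4 tested DMD probes against their distance in kb from the 3′-most probe toward the 5′ end of the gene (horizontal axis). The probes at 0 and 103.85 kb were below 0 and those at 538.82 and 1245.46 kb above 0. The Dp40-annotated probe at −0.65 was the only one called without the replicate block.

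Utrophin, the relative of dystrophin, did not pass the test on either of its probes. The brighter probe (A_32_P524014, chr6:145215631-145215690, NM_007124) read 11.89, 12.14 and 12.07 in pre-control and 11.92, 12.31 and 12.27 in pre-miR-27a cells. The groups overlapped, and the change of 0.14 (SE 0.14, adjusted p = 0.608) had a 95% interval of −0.21 to 0.48. The dimmer probe (A_23_P214779, chr6:145203595-145203654) read 8.23, 8.51 and 8.63 against 8.08, 8.51 and 8.25, also with overlap. Its change was −0.17 (SE 0.16, adjusted p = 0.561), opposite in sign to that of the brighter probe. The 95% interval of the dimmer probe ran from −0.57 to 0.22.

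Dystroglycan, the laminin receptor at the centre of the complex, was not called, though both of its probes separated the groups, in opposite directions. Its bright probe (A_24_P225961, chr3:49547198-49547257, NM_004393) read 13.39, 12.99 and 13.11 in pre-control cells. In pre-miR-27a cells it read 13.71, 13.45 and 13.66, and each treated array was above each control array. The change was 0.44 (SE 0.14, adjusted p = 0.119, 95% interval 0.10 to 0.78), or 1.36 times the pre-control signal. Within the pairs the differences were 0.32, 0.46 and 0.55, and with the replicate block it passed (adjusted p = 0.0441). A second DAG1 probe in the same transcript (A_23_P212579, chr3:49544823-49544882) read 7.27, 7.43 and 7.11 against 7.11, 6.92 and 7.06. Here each treated array was below each control array, with a change of −0.24 (SE 0.11, adjusted p = 0.253). The bright probe minus the dim probe ran from 5.56 to 6.12 on the control arrays and from 6.52 to 6.60 on the treated arrays, without overlap (exact permutation p = 0.1). The mean of both probes changed by 0.10 (adjusted p = 0.603).

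Among the sarcoglycans, SGCA (alpha-sarcoglycan, found in striated muscle) was bright and level. Its probe (A_23_P66637, chr17:45608226-45608285, NM_000023) read 15.11, 14.98 and 15.26 in pre-control and 15.19, 14.93 and 15.28 in pre-miR-27a cells. The order of the replicates was the same in both groups, and the change was 0.016 (SE 0.13, adjusted p = 0.958), with a 95% interval of −0.31 to 0.34. Its sign has no weight, since with scaling to the 75th percentile it was −0.14 (adjusted p = 0.471).

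SGCB (beta-sarcoglycan, present in many tissues) did not pass the test. The probe (A_23_P251104, with its ends at chr4:52585066-52588932, NM_000232) read 12.24, 12.41 and 12.32 against 12.31, 12.57 and 12.54. The groups overlapped, and all 3 pairs were higher, by 0.065, 0.17 and 0.22. The change was 0.15 (SE 0.10, adjusted p = 0.434).

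SGCD (delta-sarcoglycan, which pairs with beta-sarcoglycan as the core is assembled) had 1 tested probe (A_23_P147647, chr5:156119042-156119101, NM_000337). It read 9.23, 9.65 and 9.88 in pre-control and 9.06, 9.40 and 9.71 in pre-miR-27a cells, a difference of −0.19 (SE 0.23, adjusted p = 0.672) that was smaller than the spread between replicates. The probe for SGCD transcript variant 2 (A_23_P136254, with its ends at chr5:155868232-155948819, NM_172244) was well above background on all 6 arrays, yet its spot was flagged as not found on all 6, and it left the test. Without that filter it read 8.92, 9.16 and 9.41 against 8.84, 9.01 and 9.42. The groups overlapped, and the change was −0.071 (SE 0.20, adjusted p = 0.867).

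Alpha-dystrobrevin, the cytoplasmic partner that brings syntrophins to the complex, was read by 4 probes on chromosome 18. The brightest (A_23_P208158, chr18:30663004-30663063, NM_001392, transcript variant 7) read 10.19, 10.66 and 10.63 in pre-control and 9.93, 10.49 and 10.57 in pre-miR-27a cells. The groups overlapped, and the change was −0.16 (SE 0.22, adjusted p = 0.715). The probe for variant 3 (A_24_P36229, with its ends at chr18:30685882-30692297, NM_001391) read 5.99, 5.91 and 6.34 against 6.51, 6.49 and 6.84, so every treated array was above every control array. Its change was 0.54 (SE 0.16, adjusted p = 0.107), or 1.45 times the pre-control signal. The pairs gave 0.53, 0.57 and 0.51, and with the replicate block the probe passed (adjusted p = 0.0334).

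The remaining DTNA probes did not pass the test. A_23_P394809 (with its ends at chr18:30716142-30718727, NM_001390, variant 1) read 5.62, 5.40 and 5.27 against 5.56, 5.94 and 5.62, a change of 0.28 (SE 0.15, adjusted p = 0.317) that became −0.056 with normexp correction. A_32_P79648 (with its ends at chr18:30427475-30513463, transcript BC005300) read 4.27, 4.80 and 5.16 against 3.71, 3.87 and 4.80. It was well above background on 1 of 3 pre-control arrays and on 0 of 3 pre-miR-27a arrays, which does not allow a fold. The groups overlapped and the difference did not pass the test (adjusted p = 0.361). The variant 7 probe minus the variant 3 probe ran from 4.20 to 4.74 on control and from 3.42 to 4.004 on treated arrays, without overlap (exact permutation p = 0.1).

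Dysferlin differed more between replicates than between treatments: the means of same-numbered arrays spanned 1.41 and 1.32 on its 2 probes. Its brighter probe (A_23_P39925, chr2:71767254-71767313, NM_003494) read 8.80 and 10.18 in pre-control replicates 2 and 3. In pre-miR-27a replicates 1 to 3 it read 8.59, 8.18 and 9.61, and the groups overlapped. The spot of pre-control replicate 1 was flagged as not found and dropped out of the fit, with an unfiltered value of 9.26. The change was −0.70 (SE 0.61, adjusted p = 0.551), and −0.62 (adjusted p = 0.518) with that spot kept. With 1 array left out it ran from −1.39 (without pre-control replicate 2) to −0.0053 (without pre-control replicate 3), and it was −1.11 without pre-miR-27a replicate 3 and −0.39 without pre-miR-27a replicate 2. With the replicate block it was −0.60 and just passed (adjusted p = 0.0498), over the 2 pairs in which both spots were found. The other DYSF probe (A_23_P39931, chr2:71759764-71759823) read 8.21, 7.61 and 9.07 against 7.68, 7.46 and 8.64, with a change of −0.37 (SE 0.47, adjusted p = 0.690). With the replicate block, over all 3 pairs, this second probe did not pass (adjusted p = 0.0888). Replicate 3 was the highest and replicate 2 the lowest of its group on both DYSF probes in pre-miR-27a cells, and so it was in pre-control cells on the probe measured on all 3 arrays.

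**Figure D3:**
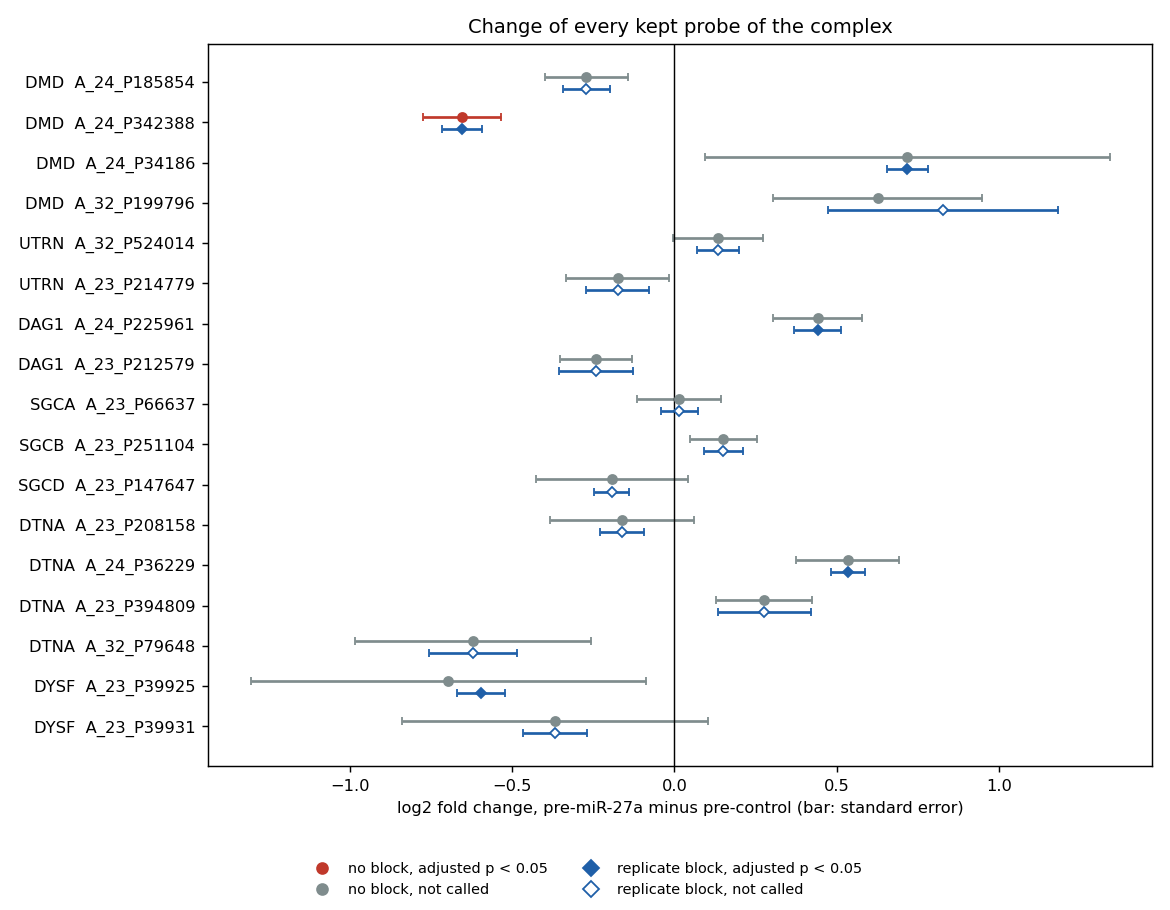
Log2 fold change, pre-miR-27a minus pre-control (horizontal axis, bars are standard errors), of each of the 17 tested member probes, fitted without (circles) and with (diamonds) the replicate number as a block; red circles and filled blue diamonds mark adjusted p under 0.05. Without the block 1 DMD probe at −0.65 was called; with it 5 probes were, and the bars of the DYSF probes and of DMD A_24_P34186 shrank the most.

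The values of much of the complex tracked the replicate number, which was also the position of the array on its slide. Of the 15 member probes measured on all 6 arrays, 10 had the same replicate highest in both groups, which was replicate 3 in 7 of them. The range between the means of same-numbered arrays exceeded the difference between the groups in 9 of the 15. The range is taken over 3 means and the difference over 2, so this count alone does not show a replicate effect. The deviations of the 15 probes from their group means correlated at 0.77, 0.86 and 0.92 between arrays of the same number and at −0.81 to −0.045 between arrays of different numbers, as a description over probes that share the same 6 arrays. In the pairs, 5 probes were higher in all 3 and 8 lower in all 3, and the other 2 had pairs of both signs. Every pair also spans both slides, so a shared sign cannot be told apart from a slide difference. None of the counts over these 15 probes was taken over all probes, so no background share stands beside them. Once the replicate number was fitted as a block, 5 of the 17 member probes were called, 3 higher (DAG1 A_24_P225961, DTNA A_24_P36229 and DMD A_24_P34186) and 2 lower (DMD A_24_P342388 and DYSF A_23_P39925). In that fit 14.9% of all probes were called. Read by its brightest probe, each of DAG1 and DYSF was then called. The second probe of each was not (block adjusted p = 0.225 for DAG1 and 0.0888 for DYSF). Of the myogenic markers, MYF6 and CKM spread the most within the groups. MYF6 ranged from 7.76 to 10.99 within the pre-control arrays and from 7.40 to 11.02 within the pre-miR-27a arrays. CKM, muscle creatine kinase, ranged from 8.30 to 10.34 and from 7.85 to 10.07. The other myogenic markers spread less. Within the pre-control arrays MYOG ranged from 9.72 to 10.69, DES from 15.17 to 16.04 and MYOD1 from 12.19 to 12.53. CHRNA1 ranged from 15.62 to 15.87 there and CDH15 from 14.77 to 14.88.

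For 7 members a search over 25719 probes, each well above background on every array, gave the genes with the most similar values over the 6 arrays. DYSF was left out for its missing spot. DMD, by its 3′ end probe, was most like COTL1 (r = 0.998), an actin-binding protein gene, and CTNND1 (r = 0.991). DAG1 was most like TMTC1 (r = 0.998) and PCMTD1 (r = 0.996). SGCA was most like LMNA (r = 0.997), the gene of the nuclear lamins A and C, and SH3PXD2A (r = 0.996). UTRN followed ABRACL (r = 0.996) and OVOS2 (r = 0.988), and DTNA followed AZIN2 (r = 0.993) and HDDC2 (r = 0.991). SGCB was nearest to AHCYL2 (r = 0.997) and SCN3B (r = 0.988), and SGCD to SLC6A10P and MRPL50 (r = 0.999 for each). With 6 arrays and so many probes searched, values this high describe the nearest probes and carry no test.

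The genes that work with the complex were counted from a list of 61, of which 59 were measured, each by its brightest probe. Called were 6, or 10.2% of those measured beside 7.4% of all gene names, 2 higher and 4 lower. Their values did not overlap between groups in 16 of the 59, beside 32.5% of all probes, and their median change was −0.10. With the replicate block 12 of the 59 were called, 5 higher and 7 lower, beside 14.9% of all probes in that fit. The shares of 32.5% and 14.9% are over probes, not over genes read by their brightest probe.

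Of the other sarcoglycans and sarcospan, 0 of 3 measured genes were called. SGCE changed by 0.063 (SE 0.15, adjusted p = 0.844). SSPN, the small membrane protein sarcospan, was higher by 0.55 (SE 0.24, adjusted p = 0.234) and passed with the block (adjusted p = 0.0357).

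Among 9 syntrophins, dystrobrevin relatives and signalling partners, 0 rose and 2 fell. NOS1, neuronal nitric oxide synthase, which syntrophin holds at the membrane, read 6.50, 6.56 and 6.49 in pre-control and 5.86, 5.90 and 6.10 in pre-miR-27a cells. It fell by 0.56 on the log2 scale (SE 0.092, adjusted p = 0.0281), and with normexp correction the change was −0.085 (adjusted p = 0.579). DTNB, beta-dystrobrevin, read 9.66, 9.83 and 9.66 against 9.36, 9.25 and 9.26, and fell by 0.42 (SE 0.086, adjusted p = 0.0440). Its call was lost with the block (−0.42, adjusted p = 0.0517), with 75th percentile scaling (−0.38, adjusted p = 0.0548) and with normexp correction (−0.34, adjusted p = 0.0573), and its second probe changed by 0.36 (adjusted p = 0.0964). The beta-syntrophins read by their brightest probes did not pass: SNTB1 changed by −0.23 (SE 0.15, adjusted p = 0.418) and SNTB2 by 0.31 (SE 0.15, adjusted p = 0.272). SNTB2 passed with the block (adjusted p = 0.0497). A dimmer probe of SNTB1 rose (1.29, adjusted p = 0.0281), against the sign of its brightest probe.

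None of 11 matrix ligands of dystroglycan and integrin genes was called (0 of 11), with changes from −0.48 to 0.30. With the block 1 passed: ITGA7, the laminin-binding integrin chain of muscle, at −0.48 (adjusted p = 0.0353). LAMA2, the laminin chain of the muscle basement membrane, changed by 0.18 (SE 0.35, adjusted p = 0.804). Of the 17 measured enzymes of dystroglycan glycosylation, 1 rose and 1 fell. B3GALNT2, which adds a sugar of the laminin-binding chain, read 8.91, 8.91 and 8.82 against 9.45, 9.53 and 9.31 and rose by 0.55 (SE 0.089, adjusted p = 0.0276). LARGE2, which extends that chain, read 9.03, 8.88 and 8.56 against 7.97, 7.84 and 7.73 and fell by 0.98 (SE 0.15, adjusted p = 0.0246), to 0.508 of the pre-control signal. With the block DPM2, named after its values were seen, passed as well (−0.34, adjusted p = 0.0412). The calls of B3GALNT2 and LARGE2 held with the block, with 75th percentile scaling and with normexp correction.

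Of 13 genes of membrane repair linked to dysferlin, 1 rose and 1 fell. TRIM72, a muscle protein that gathers vesicles at membrane tears, read 8.34, 8.54 and 8.66 against 8.96, 9.14 and 9.22 and rose by 0.59 (SE 0.12, adjusted p = 0.0456), while its dimmer probe changed by 0.16 (adjusted p = 0.593). CAV1, the caveolar coat protein caveolin-1, fell by 0.83 (SE 0.15, adjusted p = 0.0376); it was well above background on only 2 of 3 arrays in each group, with normexp correction the change was −0.20 (adjusted p = 0.149), and it is named here after its values were seen. The block added the calls of S100A10 (−0.47 without it, block adjusted p = 0.0432) and ANXA6 (0.32, block adjusted p = 0.0485) to this list. The 6 cytoskeletal linkers had 0 calls and a median change of 0.0095, and with the block PLEC, the gene of the linker plectin, passed at −0.43 (adjusted p = 0.0375). ITGA7, S100A10, ANXA6 and PLEC are named here after their values were seen. None of the 6 partner calls made without the block was kept when any single array was left out.

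**Figure D4:**
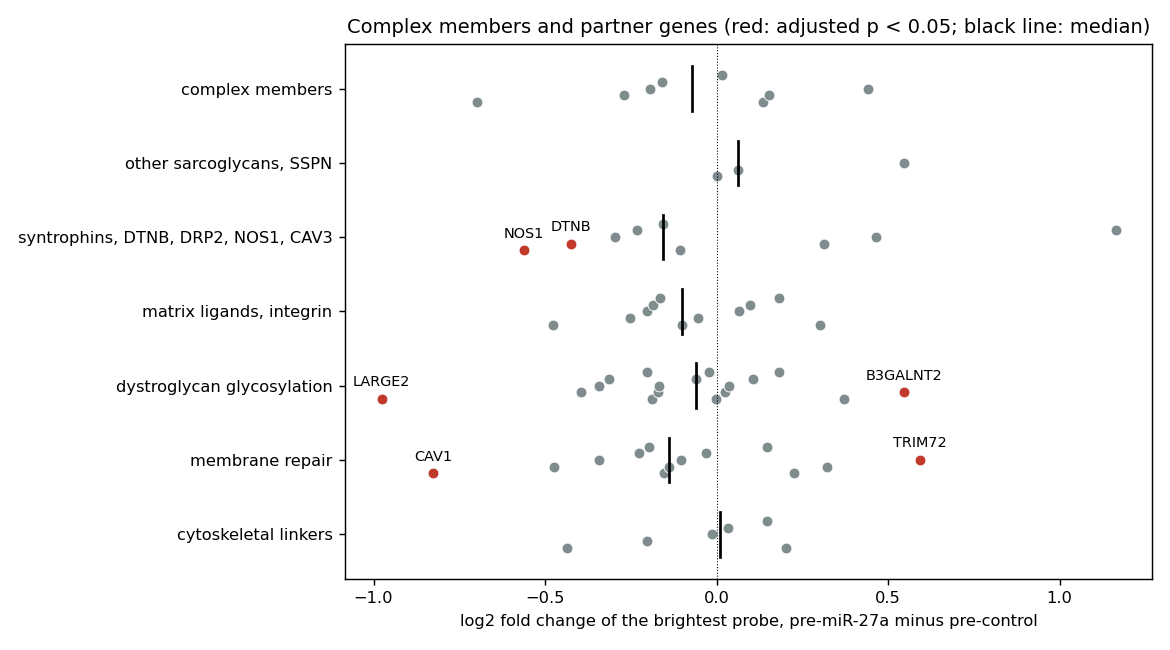
Log2 fold change of the brightest probe, pre-miR-27a minus pre-control (horizontal axis), for the 8 complex members and the 59 measured partner genes by group; each point is a gene, red points have adjusted p under 0.05 without the replicate block, and black lines are group medians. No complex member is red, and the 6 red partners lie on both sides of 0.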

How the data were processed

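The authors extracted spot signals with Agilent Feature Extraction 10.5.1.1, and the deposited array files hold 1-colour Cy3 intensity values, background-subtracted, with quality flags and probe positions in hg18. The deposited series table holds the authors' quantile-normalized log2 values (33169 probes, 18 of the 19 member probes); it served as an alternative. From the processed intensity, control spots were left out, log2 was taken, arrays were quantile normalized, spots not found by Feature Extraction became missing values, replicate spots were averaged and probes missing on more than 1 of 6 arrays (17%) were removed. The study's methods set the same limit, but the step does not reproduce its filter: it kept 36469 probes where the deposited table holds 33169, and it removed SGCD A_23_P136254, which that table holds on all arrays. The groups were compared with limma 3.58.1 in R 4.3.3 (lmFit, eBayes, unpaired), a test that replaces the SAM of the study as the main one, and p-values were adjusted over all probes kept. All probes of the members were named; partners were named where they were called, had groups that did not overlap and stood well above background throughout the higher group, plus SGCE, SNTB1, SNTB2, DTNB, SSPN and LAMA2.

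The replicate numbers of the labels pair the arrays: deviations from the group means correlated at 0.40, 0.46 and 0.41 for equal numbers and at −0.27 to −0.12 for unequal ones (31717 probes). What the number stands for is not given in the sources used here. Arrays of equal number also held the same position on their slides, so replicate number and array position cannot be told apart. Median local background was 74.5 to 76 on pre-control and 52.5 to 53 on pre-miR-27a arrays, and 1559 to 1750 against 3487 to 4153 spots were not found. Precision is limited by the number of arrays.

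The members and lists were chosen with earlier results of these data known. The scripts were tested on simulated data. Alternatives were 75th percentile scaling, normexp (offset 50), no filter, a filter on brightness, the replicate block, the deposited values, a variance trend with robust estimation, unpaired SAM (20 relabellings), the mean of a gene's probes and each array left out. Added after the data were seen were paired SAM (8 sign changes of the same-numbered pairs) and outlier spots left out. The study calls its own SAM of these arrays paired in its results and in a figure legend, and two-class in its methods. Older array names were updated through RefSeq (LARGE2, ABRACL, AZIN2 and AHCYL2 among them). SGCZ was not kept by the filter. Some listed genes are not reported here by name.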

Additional observations from a re-analysis of the deposited data

How the results depend on the processing

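The count of 1 member probe called was the same with 75th percentile scaling, without the filter, with the brightness filter, with the deposited values, with the variance trend and with outlier spots left out (chosen after seeing the data), and was 0 with normexp correction, 5 with the replicate block, 0 with unpaired SAM at a false discovery rate of 1.9% and of 5%, which leaves the pairing of the arrays aside, 0 and 2 (DMD A_24_P34186 and DTNA A_24_P36229) with paired SAM at these rates (also added after seeing the data), and 0 to 1 with each array left out. The count of members called by their brightest probe, 0, became 2 with the block. Partner genes called went from 6 to 12 with the block and to 0 with each array left out in turn. Over the whole array 2856 calls became 5421 with the block, 9 and 1345 with unpaired and 0 and 1676 with paired SAM at 1.9% and 5%, and 0 to 1276 with an array left out: 1276 without pre-control replicate 1, 81 without pre-control replicate 3 and 0 without each other array. The block moved calls of 4 member probes, each given above, and changed no other member call. The share of calls that were higher was 50.4%, and 39.2% with 75th percentile scaling. Signs turned for 6 probes, all of them uncalled. With the mean of all probes the change was 0.055 for DMD (A_24_P185854 alone −0.27), 0.0075 for DTNA (A_23_P208158 alone −0.16) and −0.020 for UTRN (A_32_P524014 alone 0.14). With normexp it was −0.056 for DTNA A_23_P394809, and with 75th percentile scaling −0.14 for SGCA. With an array left out it ran from −0.31 to 0.041 for DTNA A_23_P208158 (0.041 without pre-miR-27a replicate 1) and from −0.72 to 0.018 for DYSF A_23_P39931 (0.018 without pre-control replicate 3). For SGCA it was −0.053 without pre-control replicate 2, −0.013 without pre-miR-27a replicate 1 and −0.058 without pre-miR-27a replicate 3, within a range of −0.058 to 0.12. The cause of these shifts was not tested. Dim probes, such as DMD A_32_P199796 and DTNA A_32_P79648, lie near background, where their changes depend most on its correction.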
